A study of Mus musculus with 9 samples.

Results

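The complement and coagulation genes described here are 42 genes chosen by pathway membership and not by a threshold on their values. Earlier results of these data were known when they were chosen. All 42 were found among the 19348 gene symbols of the count table. They were looked up by symbol in 9 RNA-seq libraries of cells sorted from the lungs of C57BL/6J mice of genotype Col1_GFP;Foxf1_tdTomato, a genotype that all libraries share. By their labels, DBL cells were positive for both reporters, the green one of type I collagen and the red one of Foxf1 (replicates 1, 3 and 4). ColGFP cells were positive for the green reporter only and TDonly cells for the red one only (replicates 1, 2 and 3 each). No treatment is named in the labels, and the sources used here do not give the age and sex of the mice, the sort gates or the number of animals behind a library.

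Complement is a cascade of plasma proteins that marks surfaces for uptake and lysis. C1q with its proteases C1r and C1s starts the classical pathway by cutting C4 and C2, the alternative pathway amplifies C3 cleavage through factors B and D, and C6 and C7 belong to the lytic complex. Coagulation starts when tissue factor meets its plasma ligand, thrombin signals through protease-activated receptors, thrombomodulin and protein S restrain it, and plasminogen activators dissolve fibrin. Much of the circulating protein comes from the liver, and fibroblasts, endothelium and macrophages are known local sources in tissues.

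Each library held 17820969 to 26147475 counts. Levels are CPM, the usual unit of read counts relative to library size, scaled with TMM factors, given in the order of replicates above, and fold changes are on the log2 scale with their standard errors. Col1a1, a gene of the green reporter, measured 11668 ± 1908 CPM in DBL, 7904 ± 2577 in ColGFP and 1144 ± 669 in TDonly (mean ± SD of 3 libraries each, as in all such values here), and Foxf1 (Foxf1a in the file) 101 ± 13.1, 59.7 ± 4.47 and 246 ± 28.5 CPM. All 17 endothelial markers were higher in TDonly than in ColGFP and higher in DBL than in ColGFP, so TDonly cells carry endothelial transcripts although the series title speaks of mesenchymal cells; Foxf1 is known from lung endothelium as well as mesenchyme. The replicate 1 libraries bear sequencing core numbers of a lower series than the other 6 and stood apart in many genes. No label calls this a batch. Whether replicates are separate animals is not labelled, and the p-values therefore rest on a spread between libraries that may be technical. In sorted bulk samples, fewer cells that make a transcript and less RNA per cell cannot be told apart.

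Of the 42 genes, 41 passed the filter on low counts and were tested with all 15550 genes that passed; protein C (Proc) did not, with 0 to 4 counts per library. Most members passed between TDonly and ColGFP, where 19 members were lower and 7 higher in TDonly. Over all genes tested 45.5% passed, 24.0% lower and 21.6% higher. DBL against TDonly gave 19 members higher and 4 lower in DBL, against 29.9% of all genes, 17.3% higher and 12.6% lower. DBL against ColGFP gave 4 members higher and 5 lower, against 14.5% of all genes, 8.04% higher and 6.47% lower. The libraries of the populations did not overlap for 25, 28 and 18 of the 41 in these contrasts, against 56.1%, 47.0% and 33.3% of all genes, so in TDonly against ColGFP the members' share was near that of all genes. The same TDonly libraries enter the first pair of contrasts, so the 19 lower in TDonly are not counted as separate evidence in each. The median absolute log2 fold change of the 41 members was 1.18 in TDonly against ColGFP (0.49 over all genes tested), 1.00 in DBL against TDonly (0.35) and 0.62 in DBL against ColGFP (0.25). Since earlier results of these data were known when the members were chosen, these shares and medians are description only.

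Within the second core-number series alone (2 libraries per population) 20 members were lower and 14 higher in TDonly than in ColGFP (29.8% and 26.8% of all genes, 56.6% in all). The same 6 libraries gave 19 higher and 10 lower in DBL than in TDonly (23.6% and 19.4%, 43.1% in all), and 11 higher and 8 lower in DBL than in ColGFP (16.3% and 12.6%, 28.9% in all). Every member that passed with all 9 libraries, 26, 23 and 9 in the 3 contrasts, had the same sign in the second series. The same held in the replicate 1 libraries taken alone, which have 1 library per population and no test. Both sets are part of the 9 libraries in which these members passed, so this agreement is no separate evidence. The share over all genes that passed is not given here.

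**Figure D1:**
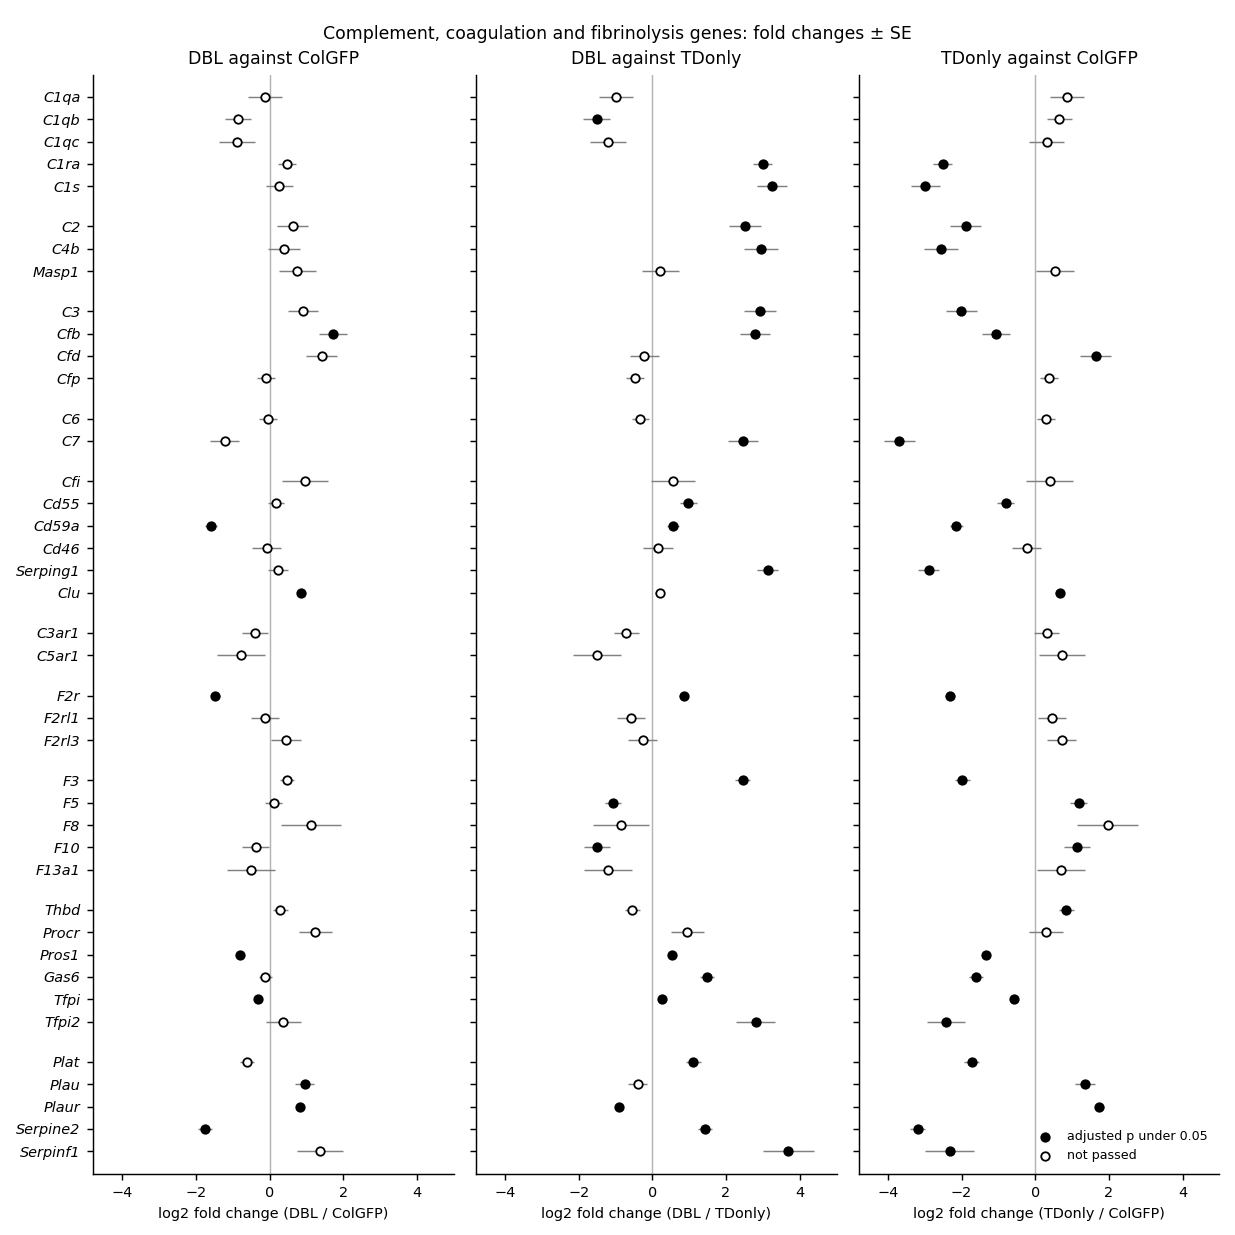
Log2 fold change with its standard error (horizontal axis) of the 41 tested members in the 3 contrasts, ordered by role; filled points have an adjusted p under 0.05. Filled points lie mostly to the right in DBL against TDonly (19 of 23) and mostly to the left in TDonly against ColGFP (19 of 26).

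Promoter sequence was looked at because 19 members were lower together in TDonly. RefSeq promoter windows (GRCm38.p6) matched 29 of the 42 genes, and the 250 bases before the start were searched on both strands for the ETS motif GGAAGT, the STAT motif TTCNNNGAA, the forkhead motif TGTTTAC and the KLF motif CCACACC. The forkhead letters, those of the family of Foxf1, were in none of the 29 windows and in 3.54% of all genes with a window. Among the 14 matched genes that were lower in TDonly, 3 held the KLF letters (Cd59a, F2r and F3), 3 the ETS letters (C7, Tfpi and Tfpi2) and 2 the STAT letters (C7 and Pros1). Over all genes with a window these shares were 7.50%, 22.2% and 8.13%. Of the 4 matched genes that were higher in TDonly, F10 held the ETS letters, as did 5 of the 11 matched genes that passed in neither direction (C1qb, C1qc, C5ar1, F2rl3 and F13a1). The windows of 6 genes are shown 5′ to 3′ on the strand of the gene, with motif matches in capitals: C3 as the member of the highest level per exon length in DBL, with no match, C7 with overlapping ETS and STAT matches 166 and 164 bases before the start, F2r, F3 and Cd59a with KLF matches, and F10 with an ETS match. A match is a description of letters and not of binding.
C3, chr17:57228137-57228386, minus strand: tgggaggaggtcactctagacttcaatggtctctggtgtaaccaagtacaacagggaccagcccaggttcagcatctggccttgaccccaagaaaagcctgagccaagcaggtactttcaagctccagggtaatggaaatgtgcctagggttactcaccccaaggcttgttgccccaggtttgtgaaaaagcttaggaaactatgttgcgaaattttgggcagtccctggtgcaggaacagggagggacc
C7, chr15:5063774-5064023, minus strand: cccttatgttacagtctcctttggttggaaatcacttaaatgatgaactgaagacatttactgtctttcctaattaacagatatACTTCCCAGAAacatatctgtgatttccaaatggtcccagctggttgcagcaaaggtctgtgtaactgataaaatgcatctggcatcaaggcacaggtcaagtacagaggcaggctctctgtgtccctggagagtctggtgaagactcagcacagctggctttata
F2r, chr13:95618467-95618716, minus strand: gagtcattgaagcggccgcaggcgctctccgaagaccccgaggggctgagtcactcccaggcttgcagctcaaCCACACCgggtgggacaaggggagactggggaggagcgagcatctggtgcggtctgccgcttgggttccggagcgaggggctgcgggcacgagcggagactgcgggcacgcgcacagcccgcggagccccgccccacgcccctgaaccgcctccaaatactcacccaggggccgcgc
F3, chr3:121723287-121723536, plus strand: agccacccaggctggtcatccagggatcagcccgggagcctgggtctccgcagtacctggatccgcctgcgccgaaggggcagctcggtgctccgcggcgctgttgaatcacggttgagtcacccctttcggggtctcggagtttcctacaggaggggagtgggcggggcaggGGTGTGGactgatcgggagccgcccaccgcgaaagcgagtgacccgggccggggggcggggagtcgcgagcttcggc
Cd59a, chr2:104095551-104095800, plus strand: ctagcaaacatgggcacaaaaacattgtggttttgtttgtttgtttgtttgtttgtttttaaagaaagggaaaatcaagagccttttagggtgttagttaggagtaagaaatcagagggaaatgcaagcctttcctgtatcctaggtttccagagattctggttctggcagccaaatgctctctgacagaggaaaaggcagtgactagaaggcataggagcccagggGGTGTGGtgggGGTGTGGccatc
F10, chr8:13037058-13037307, plus strand: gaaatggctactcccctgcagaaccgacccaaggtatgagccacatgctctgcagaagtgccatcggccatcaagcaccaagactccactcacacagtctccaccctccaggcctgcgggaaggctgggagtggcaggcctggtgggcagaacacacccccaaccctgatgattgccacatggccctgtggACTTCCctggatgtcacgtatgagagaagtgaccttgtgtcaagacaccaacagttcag

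The proteases of the classical pathway were abundant in both collagen reporter populations and low in TDonly. C1ra, which encodes C1r (chromosome 6, 124512405 to 124523443, plus strand), measured 422, 336 and 400.0 CPM in DBL, 185, 321 and 328 in ColGFP and 34.3, 51.8 and 59.5 in TDonly. C1s (C1s1 in the annotation, chromosome 6, 124530345 to 124542359, minus strand), which lies nearby and encodes the partner protease, measured 738, 612 and 659 CPM in DBL, 359, 660.1 and 662 in ColGFP and 31.7, 81.8 and 99.00 in TDonly. Every DBL and ColGFP library lay above every TDonly library for both genes. The log2 fold change of TDonly against ColGFP was -2.52 ± 0.26 (adjusted p = 4.43e-05) for C1ra and -2.98 ± 0.40 (adjusted p = 0.000219) for C1s, and of DBL against TDonly 2.99 ± 0.27 (adjusted p = 8.44e-05) and 3.24 ± 0.40 (adjusted p = 0.000354). DBL and ColGFP did not pass the test for C1ra, at 0.47 ± 0.25 (adjusted p = 0.265), or C1s, at 0.26 ± 0.37 (adjusted p = 0.724).

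Their substrates followed the same order of populations. C4b, which encodes C4 (chromosome 17, 34728380 to 34743882, minus strand), measured 1446, 1295 and 1399 CPM in DBL, 568, 1326 and 1285 in ColGFP and 70.6, 239 and 230.0 in TDonly. C2 (chromosome 17, 34862604 to 34898265, minus strand), the protease that joins C4b in the C3 convertase, measured 248, 185 and 192 CPM in DBL, 82.7, 170.2 and 154 in ColGFP and 14.5, 49.7 and 45.2 in TDonly. ColGFP replicate 1 was the lowest collagen library for C1ra, C1s, C2 and C4b, and TDonly replicate 1 the lowest of all 9. TDonly was lower than ColGFP by a log2 fold change of -2.56 ± 0.46 (adjusted p = 0.00142) for C4b and -1.89 ± 0.42 (adjusted p = 0.00503) for C2. DBL was higher than TDonly at 2.94 ± 0.47 (adjusted p = 0.00123) and 2.51 ± 0.43 (adjusted p = 0.0019). Between DBL and ColGFP the values were 0.38 ± 0.43 (adjusted p = 0.645) and 0.62 ± 0.41 (adjusted p = 0.385). Within the second series C2 was higher in DBL at 0.24 (adjusted p = 0.0321), and C4b was at 0.06 (adjusted p = 0.552). Masp1, a protease of the lectin pathway, passed in no contrast, with 0.85 to 3.39 CPM. C4a, the near-identical neighbour of C4b, and C1rb, the copy of C1ra, held 2.12 to 3.47 and 0 to 0.572 CPM, so reads assigned to C4b and C1ra could include some from these copies or lose some to them.

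C3, the protein on which all 3 activation routes converge, was highest in DBL and lowest in TDonly. C3 (chromosome 17, 57203970 to 57228136, minus strand) measured 7410.0, 5518 and 6046 CPM in DBL, 1787, 4135 and 4169 in ColGFP and 409.9, 1036 and 1071 in TDonly. The 3 populations did not overlap, with every DBL library above every ColGFP library and every ColGFP library above every TDonly library. Against ColGFP, TDonly was lower at -2.00 ± 0.41 (adjusted p = 0.00318) and DBL higher than TDonly at 2.91 ± 0.43 (adjusted p = 0.000812). DBL against ColGFP did not pass in the model without a series or block term, at 0.91 ± 0.40 (adjusted p = 0.181). With the core-number series as a factor it passed, at 1.07 (adjusted p = 0.0459). Taken within the second series, DBL exceeded ColGFP in C3 by 0.49 (adjusted p = 6.4e-06). The replicate 1 libraries gave 2.05. C3 alone made up 40.2 to 45.7% of the summed CPM of the 42 members in DBL, 21.7 to 31.1% in ColGFP and 12.4 to 21.4% in TDonly. The 42 members together took 1.37 to 1.62%, 0.825 to 1.34% and 0.331 to 0.5004% of the scaled counts.

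Among the members, factor B alone passed as higher in DBL than in both single-reporter populations in the 9-library model without a series or block term. Cfb, which encodes the protease of the alternative pathway convertase (chromosome 17, 34856374 to 34862518, minus strand), measured 566, 235 and 243 CPM in DBL, 58.8, 132 and 125 in ColGFP and 45.5, 53.3 and 53.2 in TDonly. DBL replicate 1 held more than the other DBL libraries, and all 3 DBL libraries lay above all 6 others. The log2 fold change was 1.72 ± 0.39 (adjusted p = 0.0154) against ColGFP and 2.78 ± 0.40 (adjusted p = 0.000746) against TDonly. Both calls held under all 20 alternatives tried, at 0.90 to 2.05 and 2.21 to 3.09. The values of the second series were 0.90 (adjusted p = 2.83e-08) and 2.21 (adjusted p = 2.31e-13), and those of the replicate 1 libraries 3.26 and 3.62. The level in TDonly was lower than in ColGFP at -1.06 ± 0.38 (adjusted p = 0.0464), a call that was lost under 9 of 20 alternatives. It was lost without ColGFP replicate 2 (adjusted p = 0.138), ColGFP replicate 3 (adjusted p = 0.124), or TDonly replicate 1, 2 or 3 (adjusted p = 0.104, 0.0943 and 0.0955). The others were library totals (adjusted p = 0.0778), limma-voom (adjusted p = 0.0637), the replicate block (adjusted p = 0.0774) and trios as a block (adjusted p = 0.0689). Cfb and C2 lie end to end, and the annotation holds a read-through model, Gm20547, over exons of both, so part of their counts cannot be assigned to either gene with certainty.

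The other alternative pathway members were scarce. Factor D, Cfd, known as an adipocyte product that cuts factor B, measured 2.08 ± 0.510 CPM in DBL, 0.765 ± 0.296 in ColGFP and 2.43 ± 0.961 in TDonly. Cfd was higher in TDonly than in ColGFP at 1.64 ± 0.42 (adjusted p = 0.0102), and DBL against ColGFP missed the threshold at 1.42 ± 0.42 (adjusted p = 0.0515), which it passed without ColGFP replicate 1 (adjusted p = 0.0424) or TDonly replicate 1 (adjusted p = 0.0196). Properdin, Cfp, which stabilises the convertase, lay between 3.39 and 7.34 CPM and passed in no contrast.

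**Figure D2:**
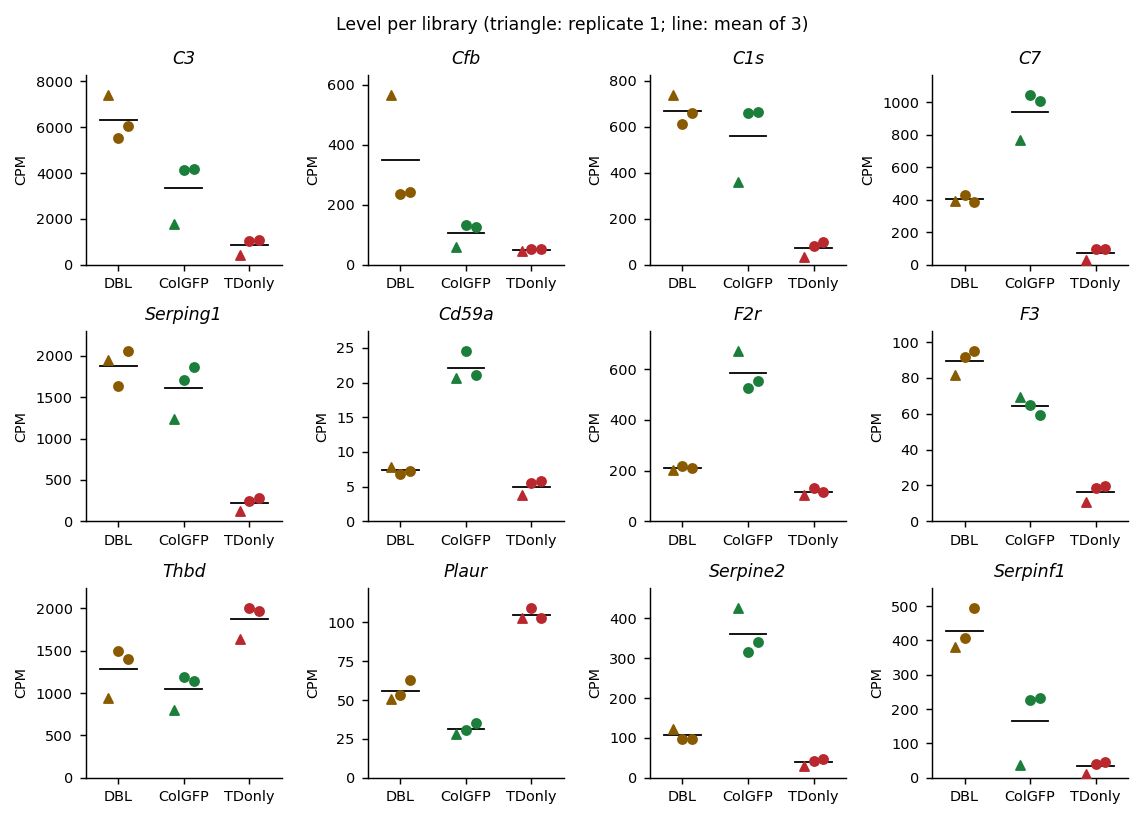
CPM per library of 12 members in the 3 populations, with triangles for replicate 1, circles for the other replicates and a line at the mean of 3. C3, Cfb, C1s, Serping1, F3 and Serpinf1 have their highest mean in DBL, C7, Cd59a, F2r and Serpine2 in ColGFP, and Thbd and Plaur in TDonly.

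C7, a component of the lytic complex, was the member with the largest difference between TDonly and ColGFP. C7 (chromosome 15, 4988762 to 5063740, minus strand) measured 395, 426 and 388 CPM in DBL, 771, 1046 and 1009.7 in ColGFP and 26.7, 97.7 and 94.7 in TDonly. The 3 populations did not overlap, and unlike C3 the highest was ColGFP. TDonly was lower than ColGFP at -3.69 ± 0.43 (adjusted p = 8.64e-05) and lower than DBL, at 2.47 ± 0.41 (adjusted p = 0.00149) for DBL against TDonly. DBL against ColGFP was at -1.23 ± 0.39 (adjusted p = 0.0677) with all libraries, at -1.22 (adjusted p = 0.000165) without TDonly replicate 1, and at -1.32 (adjusted p = 1.33e-10) in the second series. Over all 9 libraries C7 passed in this contrast with the core-number series as a factor (adjusted p = 0.0207), with trios as a block (adjusted p = 0.0393) and in DESeq2 (adjusted p = 0.0114). It also passed with only the 2 groups in the fit (adjusted p = 0.000962). C6, which binds just before C7, lies on the same chromosome (chromosome 15, 4727175 to 4814967, plus strand) and showed no such pattern: it measured 33.2, 22.4 and 19.8 CPM in DBL, 34.03, 23.95 and 19.8 in ColGFP and 26.9, 33.8 and 34.1 in TDonly. The ranges of C6 overlapped between all populations, and it passed in no contrast with all libraries. Within the second series C6 was higher in TDonly than in ColGFP, at 0.61 (adjusted p = 0.000298), and lower in DBL than in TDonly, at -0.65 (adjusted p = 0.000228).

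Among the regulators, the C1 inhibitor followed C1r and C1s, and the membrane inhibitors differed from each other. Serping1 (chromosome 2, 84765387 to 84775444, minus strand), the serpin that inactivates C1r, C1s and plasma kallikrein, measured 1953, 1633 and 2054 CPM in DBL, 1238, 1713 and 1868 in ColGFP and 129, 241 and 277 in TDonly. It was lower in TDonly than in ColGFP at -2.90 ± 0.29 (adjusted p = 3.23e-05) and higher in DBL than in TDonly at 3.12 ± 0.29 (adjusted p = 9.68e-05). DBL and ColGFP overlapped, at 0.23 ± 0.27 (adjusted p = 0.657). Cd59a (chromosome 2, 104095801 to 104115354, plus strand), the membrane inhibitor of the lytic complex, measured 7.85, 6.85 and 7.31 CPM in DBL, 20.6, 24.5 and 21.2 in ColGFP and 3.78, 5.45 and 5.76 in TDonly. ColGFP stood well above the other populations: DBL was lower at -1.59 ± 0.17 (adjusted p = 0.000269) and TDonly at -2.14 ± 0.17 (adjusted p = 9.83e-06). DBL exceeded TDonly at 0.56 ± 0.17 (adjusted p = 0.036), which missed the threshold under 11 of 20 alternatives, among them without DBL replicate 1, 3 or 4 (adjusted p = 0.0873, 0.0596 and 0.0731), with ColGFP replicate 3 left out (adjusted p = 0.0502) and without TDonly replicate 1 or 2 (adjusted p = 0.0847 and 0.0564).

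Cd55, or decay-accelerating factor, which dissolves C3 convertases on cell surfaces, measured 41.7, 57.8 and 54.1 CPM in DBL, 37.4, 48.3 and 50.96 in ColGFP and 17.2, 31.7 and 29.5 in TDonly. It was lower in TDonly than in DBL and ColGFP, with DBL against TDonly at 0.97 ± 0.23 (adjusted p = 0.0106) and TDonly against ColGFP at -0.80 ± 0.23 (adjusted p = 0.0179). The latter did not pass when ColGFP replicate 2 was left out (adjusted p = 0.0525) or when ColGFP replicate 3 was (adjusted p = 0.0588), nor with scaling by library totals (adjusted p = 0.0548). Clu, clusterin, a secreted chaperone that also binds the lytic complex (chromosome 14, 65968483 to 65981547, plus strand), measured 195, 138 and 154 CPM in DBL, 91.2, 91.5 and 86.8 in ColGFP and 131, 146 and 149.6 in TDonly. Here ColGFP was the lowest population and its libraries overlapped with no others: DBL was higher at 0.86 ± 0.13 (adjusted p = 0.00179) and TDonly at 0.66 ± 0.13 (adjusted p = 0.00201). DBL and TDonly overlapped, at 0.19 ± 0.13 (adjusted p = 0.28). Cd46, a cofactor for C3b cleavage that in mice is known mainly from testis, and Cfi, the protease that performs that cleavage, lay at 0.615 to 1.64 and 0.160 to 1.11 CPM and passed in no contrast. The paralogs of Cd59a and Cd55 in the table, Cd59b and Daf2, did not exceed 1.20 and 0.605 CPM.

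The C1q chains and the anaphylatoxin receptors, known as products of macrophages and other myeloid cells, were low in CPM. No library exceeded 4.62 CPM for a C1q chain, 4.53 for C3ar1 or 15.9 for C5ar1. C1qa, C1qb and C1qc lie side by side on chromosome 4 and measured 0.534 to 4.62 CPM over all 9 libraries. C1qb, with 1.07, 1.04 and 1.94 CPM in DBL, 3.62, 1.81 and 1.89 in ColGFP and 3.62, 3.40 and 4.62 in TDonly, was lower in DBL than in TDonly at -1.52 ± 0.36 (adjusted p = 0.0102) and was the only chain to pass with all libraries. Without TDonly replicate 1, C1qc was also lower in DBL than in TDonly, at -1.51 (adjusted p = 0.0396), and without ColGFP replicate 1, C1qb was higher in TDonly than in ColGFP, at 1.04 (adjusted p = 0.0333). In the second series all 3 chains were higher in TDonly than in ColGFP, at 1.41 (adjusted p = 0.00606) for C1qa, 1.08 (adjusted p = 0.0119) for C1qb and 1.04 (adjusted p = 0.019) for C1qc. There DBL was lower than TDonly for C1qb, at -1.37 (adjusted p = 0.00314), and C1qc, at -1.15 (adjusted p = 0.0129), while C1qa was at -0.88 (adjusted p = 0.066). C3ar1, the receptor of C3a, measured 1.22, 2.21 and 2.62 CPM in DBL, 2.37, 2.24 and 3.33 in ColGFP and 2.57, 2.80 and 4.53 in TDonly. C5ar1, the receptor of C5a, measured 0.801, 4.55 and 5.01 CPM in DBL, 4.47, 6.59 and 6.79 in ColGFP and 3.35, 10.3 and 15.9 in TDonly. Neither receptor passed in any contrast in the model without a series or block term, and the replicate 1 libraries of DBL and TDonly were the lowest of their populations for both. Within the second series C5ar1 was higher in TDonly, at -1.41 (adjusted p = 2.75e-05) for DBL against TDonly and 0.94 (adjusted p = 0.000915) for TDonly against ColGFP. Without TDonly replicate 1, DBL against TDonly was at -1.93 (adjusted p = 0.0305). Over all 9 libraries it passed with the core-number series as a factor, at -1.549 (adjusted p = 0.00767), with trios of core numbers as a block, at -1.537 (adjusted p = 0.0139), and in DESeq2, at -1.511 (adjusted p = 0.0478).

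Some leukocyte markers had library patterns like those of some of these genes. Ptprc, the pan-leukocyte antigen CD45, measured 5.22, 30.4 and 33.2 CPM in DBL, 39.3, 30.7 and 39.5 in ColGFP and 22.8, 62.97 and 82.5 in TDonly, and Csf1r, the receptor of macrophage growth factor, 13.1, 22.9 and 24.7 CPM in DBL, 31.04, 20.7 and 21.6 in ColGFP and 22.02, 38.4 and 47.5 in TDonly. Both were lowest in DBL replicate 1, as were C3ar1, C5ar1, F13a1 and Cfp. C1qb was not, with 1.07 CPM in DBL replicate 1 and 1.04 in DBL replicate 3. The summed level of the 12 macrophage markers was 1342 to 1555 CPM in DBL, 988 to 2458 in ColGFP and 2172 to 3275 in TDonly, mostly Lyz2, which alveolar epithelium also makes. With all libraries 5 of the 11 macrophage markers tested were lower in DBL than in TDonly and 3 were higher in TDonly than in ColGFP. Within the second series 11 were so in each contrast. Of 7 neutrophil and monocyte markers tested, 1 was lower in DBL than in TDonly and 1 higher in TDonly than in ColGFP with all libraries. In the second series these numbers were 6 and 4. None of the 10 other leukocyte markers, Ptprc among them, passed in any contrast with all libraries. In the second series 5 were lower in DBL than in TDonly and 5 higher in TDonly than in ColGFP. None of these markers was at 0 in all libraries, and the part of leukocyte RNA in the values of C1q, C3ar1, C5ar1 and F13a1 was not tested.

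**Figure D3:**
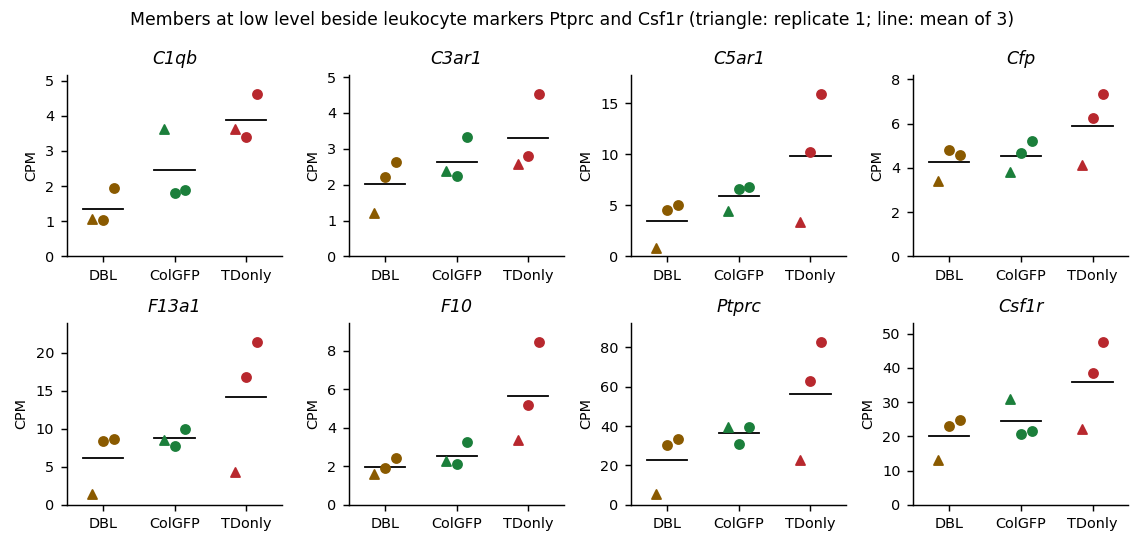
CPM per library of 6 low-level members and of the leukocyte markers Ptprc and Csf1r in the 3 populations, with triangles for replicate 1 and a line at the mean of 3. The replicate 1 triangles of DBL and TDonly are the lowest points of their populations for C5ar1, F13a1, Ptprc and Csf1r, and the highest mean of every panel is in TDonly.

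The thrombin receptor separated all 3 populations. F2r, protease-activated receptor 1 (chromosome 13, 95601803 to 95618487, minus strand), measured 203, 219 and 208 CPM in DBL, 669, 526 and 553 in ColGFP and 103, 129.6 and 117 in TDonly. No libraries of different populations overlapped, in the order ColGFP, DBL, TDonly. DBL was lower than ColGFP at -1.47 ± 0.13 (adjusted p = 7.58e-05), higher than TDonly at 0.85 ± 0.12 (adjusted p = 0.000788), and TDonly was lower than ColGFP at -2.32 ± 0.13 (adjusted p = 1.04e-06). All 3 calls held under all 20 alternatives. F2rl1, receptor 2, which trypsin-like proteases cut and which lies near F2r on chromosome 13 (95511732 to 95525227, minus strand), measured 3.77, 5.90 and 5.65 CPM in DBL, 9.21, 2.66 and 4.71 in ColGFP and 7.33, 8.37 and 7.21 in TDonly and passed in no contrast with all libraries. In ColGFP its replicate 1 held more than the others, and without that library TDonly was higher than ColGFP at 1.02 (adjusted p = 0.0186). F2rl3, receptor 4, known from platelets and endothelium, lay at 0.537 to 1.93 CPM and passed in no contrast with all libraries. Without ColGFP replicate 3, TDonly was higher than ColGFP (1.25, adjusted p = 0.0303).

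Tissue factor was highest in DBL and lowest in TDonly. F3 (chromosome 3, 121723537 to 121735048, plus strand), the membrane protein that starts coagulation, measured 81.5, 91.6 and 94.8 CPM in DBL, 69.5, 64.7 and 59.3 in ColGFP and 10.8, 18.5 and 19.8 in TDonly. Every DBL library lay above every ColGFP library, and TDonly lay below both. DBL was higher than TDonly at 2.45 ± 0.20 (adjusted p = 7.04e-05) and TDonly lower than ColGFP at -1.98 ± 0.20 (adjusted p = 3.68e-05). DBL against ColGFP was at 0.47 ± 0.19 (adjusted p = 0.147) with all libraries, at 0.61 (adjusted p = 2.63e-05) within the second series and at 0.47 (adjusted p = 0.00856) without TDonly replicate 1.

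The plasma procoagulants were low in all populations and higher in TDonly where they passed. F5, the cofactor in prothrombin cleavage, measured 4.80, 6.44 and 6.50 CPM in DBL, 5.72, 5.44 and 5.22 in ColGFP and 8.38, 14.8 and 14.1 in TDonly. It was higher in TDonly than in ColGFP at 1.18 ± 0.23 (adjusted p = 0.0022) and lower in DBL than in TDonly at -1.07 ± 0.23 (adjusted p = 0.0059). F10, the protease that cuts prothrombin, measured 1.60, 1.89 and 2.42 CPM in DBL, 2.28, 2.12 and 3.28 in ColGFP and 3.35, 5.17 and 8.44 in TDonly. DBL was lower than TDonly at -1.51 ± 0.35 (adjusted p = 0.00967) and TDonly higher than ColGFP at 1.13 ± 0.35 (adjusted p = 0.0246). The latter did not pass when ColGFP replicate 1 or 2 was left out (adjusted p = 0.072 and 0.0922) or TDonly replicate 3 was (adjusted p = 0.101), nor in limma-voom (adjusted p = 0.0529). F10 is also known from macrophages, whose markers are given above.

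F8 and F13a1 had replicate 1 libraries apart from the others in DBL and TDonly, and passed in no contrast in the model without a series or block term. F8, the cofactor known from endothelium, measured 9.76, 2.39 and 3.11 CPM in DBL, 2.996, 1.57 and 2.45 in ColGFP and 20.97, 4.01 and 2.59 in TDonly, so that replicate 1 held more than the other replicates in both Foxf1 reporter populations. Its TDonly against ColGFP value was 1.96 ± 0.82 (adjusted p = 0.0765) and, without TDonly replicate 3, 2.40 (adjusted p = 0.0353). In the second series it was 0.67 (adjusted p = 0.0973). Over all 9 libraries it passed with the core-number series as a factor, at 1.497 (adjusted p = 0.0153), with trios as a block, at 1.508 (adjusted p = 0.0258), and in DESeq2, at 1.956 (adjusted p = 0.0163). F13a1, the chain of the fibrin crosslinking enzyme made by macrophages and megakaryocytes, measured 1.37, 8.38 and 8.64 CPM in DBL, 8.50, 7.74 and 9.93 in ColGFP and 4.36, 16.8 and 21.4 in TDonly. Here replicate 1 was the lowest in DBL and TDonly, as for Ptprc, and TDonly exceeded ColGFP in the second series at 1.07 (adjusted p = 3.05e-05), where DBL was lower than TDonly at -1.12 (adjusted p = 2.42e-05). The summed level of 9 platelet and megakaryocyte markers was 30.3 to 37.5 CPM in DBL, 20.7 to 28.6 in ColGFP and 42.4 to 62.97 in TDonly.

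Thrombomodulin was highest in TDonly, and high in the collagen reporter cells too. Thbd (chromosome 2, 148404466 to 148408188, minus strand), the endothelial receptor that turns thrombin towards protein C activation, measured 948, 1492 and 1397 CPM in DBL, 801, 1187 and 1147 in ColGFP and 1640.4, 2005 and 1967 in TDonly. Every TDonly library lay above every other library, and DBL and ColGFP overlapped. TDonly was higher than ColGFP at 0.84 ± 0.21 (adjusted p = 0.00875). DBL against TDonly was at -0.55 ± 0.21 (adjusted p = 0.0761) with all libraries and -0.42 (adjusted p = 3.16e-05) in the second series, and passed with the core-number series as a factor, at -0.571 (adjusted p = 0.00158). In the second series DBL was also higher than ColGFP, at 0.32 (adjusted p = 0.000659). The mean of ColGFP was 55.9% of that of TDonly for Thbd, and 6.45% for the endothelial marker Pecam1 and 6.47% for Cdh5. Procr, the endothelial protein C receptor, measured 13.9, 14.6 and 13.3 CPM in DBL, 2.15, 8.77 and 6.88 in ColGFP and 11.2, 5.13 and 5.28 in TDonly. DBL did not overlap with either population, but the spread in ColGFP and TDonly left DBL against ColGFP at 1.24 ± 0.46 (adjusted p = 0.111) and DBL against TDonly at 0.95 ± 0.45 (adjusted p = 0.144). Without TDonly replicate 1 the latter was 1.42 (adjusted p = 0.0433), and without ColGFP replicate 1 it was 1.00 (adjusted p = 0.0286). Both passed within the second series, at 0.85 (adjusted p = 0.000899) and 1.46 (adjusted p = 2.08e-06).

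Pros1 and Gas6, which encode related vitamin K-dependent proteins, were higher in both collagen reporter populations than in TDonly. Pros1, protein S, the cofactor of activated protein C and a ligand of TAM receptors (chromosome 16, 62854307 to 62929346, plus strand), measured 169, 187 and 184 CPM in DBL, 286, 338 and 324 in ColGFP and 114, 129 and 134 in TDonly. The populations did not overlap and stood in the order ColGFP, DBL, TDonly, with DBL lower than ColGFP at -0.81 ± 0.10 (adjusted p = 0.000715), DBL higher than TDonly at 0.52 ± 0.10 (adjusted p = 0.00408) and TDonly lower than ColGFP at -1.33 ± 0.10 (adjusted p = 7.65e-06). Gas6, the related TAM receptor ligand (chromosome 8, 13465374 to 13494490, minus strand), measured 516, 400.3 and 439 CPM in DBL, 402, 554 and 523 in ColGFP and 127, 174 and 185 in TDonly. TDonly was lower than ColGFP at -1.61 ± 0.18 (adjusted p = 7.01e-05) and DBL higher than TDonly at 1.48 ± 0.18 (adjusted p = 0.000314). DBL and ColGFP overlapped, at -0.13 ± 0.18 (adjusted p = 0.715), with -0.34 (adjusted p = 0.00113) in the second series and 0.36 between the replicate 1 libraries. Of the receptors that bind Gas6 and protein S, taken from the wider pathway list, Axl measured 614 ± 114 CPM in DBL, 369 ± 59.9 in ColGFP and 89.04 ± 47.3 in TDonly, and was higher in DBL than in TDonly at 2.78 ± 0.40 (adjusted p = 0.00074). Mertk, at 50.5 ± 4.52, 63.2 ± 10.4 and 95.96 ± 7.55 CPM, was lower in DBL than in TDonly at -0.92 ± 0.13 (adjusted p = 0.000615).

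The tissue factor pathway inhibitors differed in size of effect. Tfpi, which blocks tissue factor and factor Xa, measured 54.6, 51.9 and 49.3 CPM in DBL, 66.01, 61.5 and 65.8 in ColGFP and 40.8, 44.8 and 44.4 in TDonly. It was lower in TDonly than in ColGFP at -0.57 ± 0.08 (adjusted p = 0.000349). The smaller differences, -0.31 ± 0.08 (adjusted p = 0.0326) for DBL against ColGFP and 0.26 ± 0.08 (adjusted p = 0.0384) for DBL against TDonly, missed the threshold under 11 and 9 of 20 alternatives, although the populations did not overlap. For DBL against ColGFP these included leaving out DBL replicate 3 or 4 (adjusted p = 0.0826 and 0.192), ColGFP replicate 1, 2 or 3 (adjusted p = 0.0925, 0.0626 and 0.108) or TDonly replicate 2 or 3 (adjusted p = 0.0562 and 0.0529). For DBL against TDonly they included leaving out DBL replicate 1 or 3 (adjusted p = 0.105 and 0.0858) or TDonly replicate 1, 2 or 3 (adjusted p = 0.107, 0.0733 and 0.077). Tfpi2, a matrix-bound relative that inhibits plasmin and trypsin, measured 4.80, 16.1 and 11.95 CPM in DBL, 3.98, 10.6 and 10.8 in ColGFP and 1.21, 2.08 and 1.41 in TDonly. Replicate 1 was the lowest library of each population, and TDonly was lower than ColGFP at -2.42 ± 0.52 (adjusted p = 0.00392) and DBL higher than TDonly at 2.80 ± 0.52 (adjusted p = 0.00287).

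The plasminogen activators went in opposite directions. Plat, tissue-type activator (chromosome 8, 22757727 to 22782844, plus strand), measured 146, 157 and 161 CPM in DBL, 166, 272 and 275 in ColGFP and 86.5, 61.4 and 67.2 in TDonly. It was lower in TDonly than in ColGFP at -1.73 ± 0.20 (adjusted p = 8.89e-05) and higher in DBL than in TDonly at 1.11 ± 0.20 (adjusted p = 0.00233). DBL against ColGFP was at -0.62 ± 0.20 (adjusted p = 0.0664) with all libraries, -0.80 (adjusted p = 0.00543) without ColGFP replicate 1 and -0.62 (adjusted p = 0.0388) without TDonly replicate 1. It was at -0.77 (adjusted p = 2.87e-07) in the second series and at -0.61 (adjusted p = 0.0252) in DESeq2. Plau, urokinase (chromosome 14, 20836660 to 20843385, plus strand), measured 14.9, 10.6 and 13.4 CPM in DBL, 3.85, 8.65 and 7.81 in ColGFP and 17.4, 16.8 and 17.4 in TDonly. ColGFP was the lowest population, with TDonly higher at 1.35 ± 0.26 (adjusted p = 0.00234) and DBL higher at 0.95 ± 0.26 (adjusted p = 0.0399). The latter call missed the threshold under 8 of 20 alternatives, among them without DBL replicate 1, 3 or 4 (adjusted p = 0.12, 0.0508 and 0.0992), without ColGFP replicate 3 (adjusted p = 0.0714), without TDonly replicate 2 or 3 (adjusted p = 0.0633 and 0.0627) and with only the 2 groups in the fit. Plaur, the receptor that holds urokinase at the cell surface (chromosome 7, 24462484 to 24475968, plus strand), measured 50.9, 53.4 and 62.7 CPM in DBL, 28.5, 30.6 and 35.1 in ColGFP and 103, 109 and 103 in TDonly. Its populations did not overlap and stood in the order TDonly, DBL, ColGFP: DBL was higher than ColGFP at 0.83 ± 0.11 (adjusted p = 0.001) and lower than TDonly at -0.92 ± 0.11 (adjusted p = 0.000296), and TDonly was higher than ColGFP at 1.74 ± 0.11 (adjusted p = 2.49e-06).

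Both serpins of this group were lowest in TDonly, and each was highest in a different population. Serpine2, protease nexin 1, an inhibitor of thrombin and plasminogen activators (chromosome 1, 79794197 to 79861180, minus strand), measured 123, 98.4 and 97.3 CPM in DBL, 426, 315 and 339.5 in ColGFP and 29.2, 42.4 and 46.9 in TDonly. The order was ColGFP, DBL, TDonly with no overlap: DBL was lower than ColGFP at -1.76 ± 0.19 (adjusted p = 0.000304), higher than TDonly at 1.43 ± 0.19 (adjusted p = 0.000511). TDonly was lower than ColGFP at -3.19 ± 0.20 (adjusted p = 2.37e-06). Serpinf1, pigment epithelium-derived factor, a serpin that does not inhibit proteases (chromosome 11, 75409769 to 75422701, minus strand), measured 380.4, 408 and 495 CPM in DBL, 37.3, 228 and 234 in ColGFP and 12.2, 39.8 and 47.3 in TDonly. DBL exceeded every other library, and ColGFP replicate 1 lay within the range of TDonly. DBL was higher than TDonly at 3.69 ± 0.69 (adjusted p = 0.00301). TDonly was lower than ColGFP at -2.33 ± 0.66 (adjusted p = 0.0163), which did not pass when ColGFP replicate 2 was left out (adjusted p = 0.0536) or ColGFP replicate 3 (adjusted p = 0.0536). DBL against ColGFP was at 1.36 ± 0.63 (adjusted p = 0.203) with all libraries in the model without a series or block term. It passed with the core-number series as a factor, at 1.78 (adjusted p = 0.0141), and with trios as a block, at 1.77 (adjusted p = 0.0283). The value was 0.98 (adjusted p = 1.94e-07) in the second series and 3.33 between the replicate 1 libraries. The adventitial fibroblast marker Pi16 was also low in ColGFP replicate 1, at 83.3, 417 and 363 CPM in ColGFP, against 581, 601 and 666 in DBL.

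In the model of all 9 libraries without a series or block term, only Cfb passed with the same sign in DBL against both single-reporter populations. By library values, every DBL library also lay above every other library for C1ra, C2, C3, F3, Procr and Serpinf1. Within the second series 6 members were higher in DBL than in both, namely C2, C3, Cfb, F3, Procr and Serpinf1, and none was lower; in the replicate 1 libraries DBL also held the highest value for each of these 6. With the core-number series as a factor over all 9 libraries the members were C3, Cfb and Serpinf1, and with the trio of neighbouring core numbers as a block Cfb and Serpinf1. Without TDonly replicate 1 they were Cfb and F3. Another 6 members passed in both contrasts of DBL with opposite signs, which places DBL between the populations: Cd59a, F2r, Pros1, Tfpi and Serpine2, highest in ColGFP, and Plaur, highest in TDonly. How many of all genes showed these patterns was not counted, so the counts are description and no result about the members. Of all genes in the second series, 16.3% passed as higher in DBL than in ColGFP and 23.6% as higher than in TDonly.

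To compare genes with each other, levels were divided by exon length (CPM per kb). On that scale C3 was first among the members in DBL at 1229.7 CPM per kb, which ranked 10 of 15353 genes, and Serping1 second at 809 (rank 16). In ColGFP Serping1 led at 691 (rank 26), with C3 at 654 (rank 27) and C7 at 352 (rank 65). The libraries of Serping1 and C3 overlapped there. In TDonly Thbd led at 502 (rank 29), ahead of C3 at 163 (rank 132). C1s exceeded its partner C1ra per kb in DBL (214 against 129) and ColGFP (179 against 93.3), and C1q chains were at 0.531 to 3.57 CPM per kb in the means of all populations. Tissue factor was at 35.3 in DBL against 9.51 for its inhibitor Tfpi, and at 6.48 against 7.93 in TDonly. In TDonly the ranges of F3 and Tfpi per kb overlapped, although F3 was below Tfpi within each library. Thbd exceeded Procr in all 3 populations, at 502 against 3.54 CPM per kb in TDonly.

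**Figure D4:**
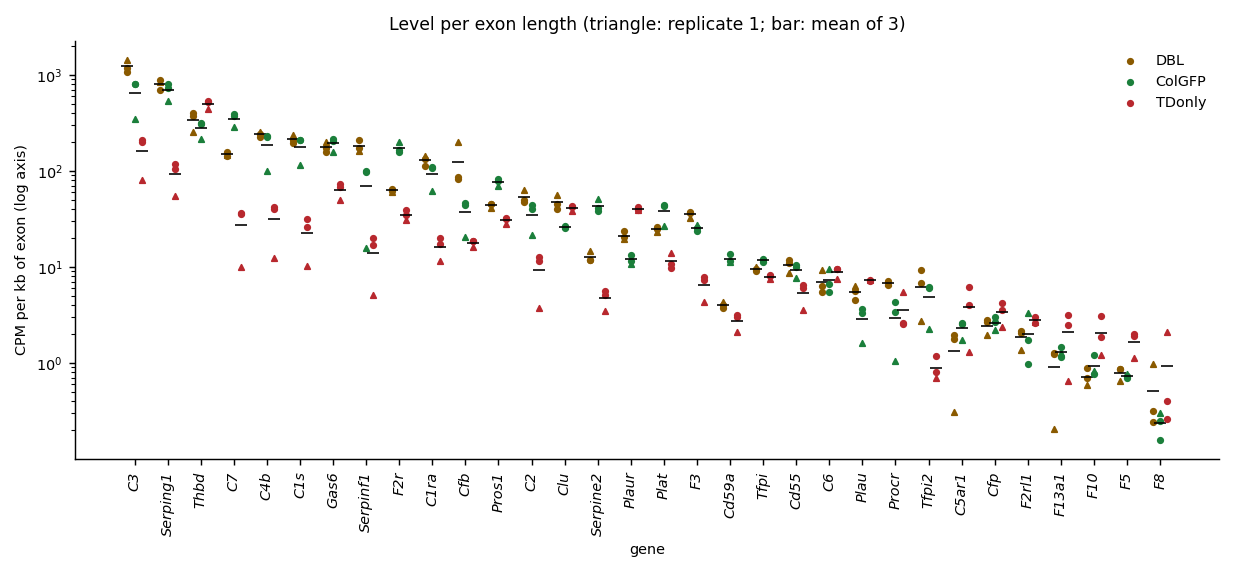
CPM per kb of exon (log axis) of the 32 members whose highest population mean is at least 5 CPM, ordered by their highest population mean per kb, with triangles for replicate 1, circles for other replicates and bars at the mean of 3. C3 and Serping1 lead in DBL and ColGFP, and Thbd leads in TDonly.

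Some of these transcripts were measured in TDonly although that population is labelled as positive for the Foxf1 reporter only. The TDonly mean was 9.80% of the DBL mean for Col1a1, 10.6% for C1s, 11.5% for Serping1, 13.3% for C3 and 7.74% for Serpinf1. It was 55.5% for F2r, 51.1% for Cd55 and 83.4% for Tfpi. As a share of the ColGFP mean, TDonly was at 14.5% for Col1a1, 12.6% for C1s, 13.4% for Serping1, 24.9% for C3 and 19.9% for Serpinf1. On that base F2r was at 20.0%, Cd55 at 57.4% and Tfpi at 67.2%. The share of F2r thus depends on the population it is set against. What part of the TDonly values came from cells with collagen RNA was not tested.

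Markers of other cell types differed between the populations beside these genes. The summed level of the 17 endothelial markers was 4729.8 to 6073 CPM in DBL, 937 to 1285 in ColGFP and 13448 to 15333 in TDonly. Of 10 alveolar fibroblast markers 8 were lower in DBL than in ColGFP and all 10 lower in TDonly than in ColGFP, with sums of 2189 to 3134, 8775 to 9019.6 and 433 to 1214 CPM; Cd59a, F2r, Pros1 and Serpine2 stood in the same order. All 9 smooth muscle markers were lower in TDonly than in ColGFP and in DBL, and 4 of them were lower in DBL than in ColGFP. Their sums, 995 to 1283, 2012 to 3362 and 360 to 451 CPM, stood in that same order of populations. Of 9 pericyte markers 5 were higher in DBL than in TDonly, and 1 was higher and 1 lower in DBL than in ColGFP. Between TDonly and ColGFP 3 of them were higher and 5 lower in TDonly, with sums of 872 to 1159, 797 to 1069 and 149 to 274 CPM. Of 9 adventitial fibroblast markers 2 were higher in DBL than in ColGFP and 8 higher in DBL than in TDonly, with sums of 6445 to 9162, 1969 to 5316 and 406 to 1152 CPM, beside C3, Cfb and Serpinf1. Of 8 mesothelial markers 6 were higher in DBL than in ColGFP and 8 higher in DBL than in TDonly, with sums of 660.3 to 784, 233 to 295 and 80.6 to 306 CPM, beside Cfb and Procr. Epithelial markers summed to 7731 to 8443, 4239.6 to 12694 and 12119 to 15581 CPM, and 7 hepatocyte markers to 8.83 to 9.05, 3.67 to 7.07 and 2.61 to 3.08 CPM. Between DBL and ColGFP in the second series alone, 7 adventitial fibroblast and all 14 epithelial markers were higher in DBL. With all libraries 0 epithelial markers passed in that contrast. Lower in DBL in the second series were 8 smooth muscle and all 10 alveolar fibroblast markers. Of the mesothelial markers 6 were higher and 1 lower there, and of the pericyte markers 4 were higher and 2 lower. The part of these cell types in the results was not tested. In the annotation 8 members (C1s, C2, Cfb, Cd55, Cd46, F5, F13a1 and Gas6) share exon positions with another gene or antisense transcript, and without a known strand setting the reads there cannot be told apart.

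Other genes of the pathways were taken from a list of 72, of which 67 were in the table and 49 were tested. Between TDonly and ColGFP 9 were higher and 12 lower in TDonly, between DBL and TDonly 12 were higher and 6 lower in DBL, and between DBL and ColGFP 2 were higher and 3 lower in DBL. Over all genes tested 45.5%, 29.9% and 14.5% passed in these contrasts, so the counts of the list are no result about it. The scavenger receptor collectin Colec12 was lower in DBL than in ColGFP at -1.07 ± 0.22 (adjusted p = 0.0101) and lower in TDonly than in ColGFP at -3.19 ± 0.24 (adjusted p = 5.86e-06), as was the complement inhibitor Csmd1, at -2.20 ± 0.24 (adjusted p = 0.000308) and -4.51 ± 0.28 (adjusted p = 1.82e-06). The endothelial genes Vwf, which encodes von Willebrand factor, and Cd93, a membrane lectin once described as a C1q receptor, were higher in TDonly than in ColGFP, at 4.03 ± 0.29 (adjusted p = 5.35e-06) and 4.14 ± 0.25 (adjusted p = 1.64e-06), and higher in DBL than in ColGFP, at 2.37 ± 0.27 (adjusted p = 0.000426) and 2.60 ± 0.23 (adjusted p = 0.000101). F7, the plasma ligand of tissue factor, reached 5.83 ± 1.78 CPM in TDonly and was higher there than in ColGFP at 2.12 ± 0.44 (adjusted p = 0.00312).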

How the data were processed

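RNA-seq was measured in 9 libraries of sorted mouse lung cells, 3 per population; groups and replicate numbers came from sample titles, and columns were matched through the sequencing core numbers in the labels. The authors deposited raw read counts per gene symbol, made with cutadapt, TopHat and HTSeq on mm10 per the submitters' processing notes; the versions, annotation and strand setting used were not given in the sources used here. The series text describes sorted cells and depletion of ribosomal RNA, while the labels' protocols describe RNA from frozen lungs and no sort. A further 3 count columns fit no labelled sample and were left out. Few counts limit the precision of scarce genes, and the spread between replicates was used in place of counting intervals.

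Genes were kept by filterByExpr (minimum count 10), and the 9 libraries entered 1 quasi-likelihood model with population as its term (edgeR 4.0.16, R 4.3.3; TMM factors, 6 residual degrees of freedom). Each contrast had a two-sided test at 0.05 after Benjamini-Hochberg adjustment across the 15550 genes. The standard error is the log2 fold change divided by the square root of F. Replicate 1 differences are log2 ratios of CPM plus 0.5. Exon lengths and coordinates came from GENCODE M21 (mm10; C1s matched as C1s1), and 8 members share exon positions with another gene. Alternatives were other scaling (DESeq2 size factors, library totals, upper quartile), DESeq2 1.42.0, limma-voom (limma 3.58.1), no filter, 2 groups only, blocks, the second series and leaving out each library. The model script was tested on simulated data. Members passing in any contrast with a population mean of at least 5 CPM are given per library, and up to 4 other pathway genes per contrast and direction are named; C1qb, C3ar1, C5ar1, C6, F2rl1, F8, F13a1 and Procr, outside that rule, are given per library, and Axl, F7 and Pi16 named, after their values were seen. The members and lists were chosen with earlier results of these data known.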

Additional observations from a re-analysis of the deposited data

How the results depend on the processing

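All 58 differences of single members that passed with all libraries (9, 23 and 26 in DBL against ColGFP, DBL against TDonly and TDonly against ColGFP) kept their direction under each of the 20 alternatives, and 7, 21 and 22 of them kept their side of the threshold in every one. The others were Tfpi and Plau in the first contrast, Cd59a and Tfpi in the second, and Cfb, Cd55, F10 and Serpinf1 in the third. Scaling by library totals moved the median gene by 0.15 (log2) in TDonly against ColGFP.

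In the second core-number series alone, members higher and lower in DBL than in ColGFP numbered 11 and 8 (4 and 5 with all libraries), with 4512 genes differing in all (2256). There 10 members were lower in DBL than in TDonly (4), with 6724 genes differing in all (4657). Members higher in TDonly than in ColGFP numbered 14 (7), with 8834 genes differing in all (7082). Higher in DBL than in both other populations were 6 (1), a pattern not counted over all genes. With the core-number series as a factor, 7 members were higher in DBL than in ColGFP, with 3222 genes differing in all (2256). Under that setting 3 were higher in DBL than in both others. With trios of core numbers as a block, and with only the 2 groups compared, the number higher in DBL than in both was 2. The cause was not tested.

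Replicate numbers were not taken as pairs, since not every same-numbered pair correlated above 0.1 in its deviations across genes: TDonly and ColGFP were at 0.102, 0.045 and 0.079, and DBL and ColGFP at 0.0926 and 0.0156 (replicates 1 and 3). DBL and TDonly did deviate together, at 0.527 and 0.232 by number and 0.527, 0.306 and 0.340 by trio of core numbers. DBL replicate 4 and TDonly replicate 2, which share the core-number series but neither number nor trio, were at 0.289. DBL and TDonly libraries of different series were at -0.424 to -0.358. Pairing by number or trio therefore cannot be told apart from the core-number series here. In a fit with the replicate block, in which DBL replicate 4 has a number of its own and adds nothing, 7 members were lower in DBL than in TDonly (4), among them C5ar1 (adjusted p = 0.0234), C3ar1 (adjusted p = 0.0397) and Thbd (adjusted p = 0.0373). All genes differing in that contrast numbered 3594 in that fit, against 4657 without the block.

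Leaving out each library gave 3 to 6 members higher and 4 to 7 lower in DBL than in ColGFP, 17 to 20 and 4 to 6 in DBL against TDonly, 6 to 8 and 16 to 19 in TDonly against ColGFP, and 1 or 2 higher in DBL than in both (2 without TDonly replicate 1). All genes differing numbered 1468 to 2761, 3479 to 5117 and 5702 to 7361 in these contrasts; the lowest of the first, 1478 and 1468, came without ColGFP replicate 2 or 3.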
